A study of Mus musculus with 6 samples.

Results

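The small leucine-rich proteoglycans are a family of secreted proteins of the extracellular matrix with a core of leucine-rich repeats. They bind fibrillar collagen and influence how its fibrils assemble, and several of them also bind growth factors or their receptors. Decorin (Dcn), biglycan (Bgn) and asporin (Aspn) form one class, in which decorin and biglycan carry chondroitin or dermatan sulfate chains. Fibromodulin (Fmod), lumican (Lum) and PRELP (Prelp) form another, and fibromodulin and lumican carry keratan sulfate. Osteoglycin (Ogn) belongs to a further class. In adipose tissue these genes are known mainly from fibroblasts and adipocyte progenitors.

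The members were chosen by symbol, as 7 genes of this family, and 6 of them were among the 13283 genes of the table. Lum was not analysed here. The list was drawn up with the differences between these same libraries already known, so the differences of the members are described without a p-value, and tests are given for other genes only.

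RNA was sequenced from BAT cells, an immortalized line of mouse brown preadipocytes that stably carries Cas9. Control cells (Scr, genotype WT in the labels, 3 libraries) had received a scrambled sgRNA, and KO cells (genotype MICT1-CRISPR KO, 3 libraries) an sgRNA against MICT1, a microprotein of brown adipocytes. Every culture was treated to differentiate into adipocytes. At day 6 it was given 10 µM forskolin, an activator of adenylyl cyclase, for 6 h, so no unstimulated culture was compared. The question was how loss of MICT1 alters gene expression in these cells. The KO cells are pools and not clones, the labels do not tie a library to one of the sgRNAs, and all cultures are of a single line. MICT1 itself was not analysed here.

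The libraries held 15445771 to 17925567 estimated reads. Of 12 adipocyte markers 11 were listed, and all 11 fell in KO (limma-trend, Benjamini-Hochberg adjusted p under 0.05 over all genes tested). Of all genes tested 28.3% were lower at that threshold. Adipoq had a log2 fold change of -6.66. The summed level of the 11 markers was 7716 to 9345 CPM (values scaled to the same library total) in Scr libraries against 921 to 1322 CPM for KO. Ucp1, which defines brown fat, was low throughout, at 25.1 ± 4.96 (SD, n = 3) for Scr and 4.10 ± 4.55 for KO. No KO value of Adipoq or Ucp1 reached 10, so both were tested through Scr libraries alone. In bulk samples fewer cells of a type and less RNA per cell cannot be told apart.

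The members went in different directions. Dcn was 26.6-fold higher in KO, Bgn, the most abundant member, was 1.11-fold higher, and the scarce members Ogn, Aspn, Prelp and Fmod were lower. Values are in the authors' normalized units. Log2 fold changes are KO minus Scr on the log2(value + 1) scale, with the standard error from limma-trend, fitted to the 12507 genes that reached a value of 10 in 3 or more libraries. Where a gene is said to rise or fall by a value, or to be at one beside an adjusted p, that value is its log2 fold change.

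**Figure D1:**
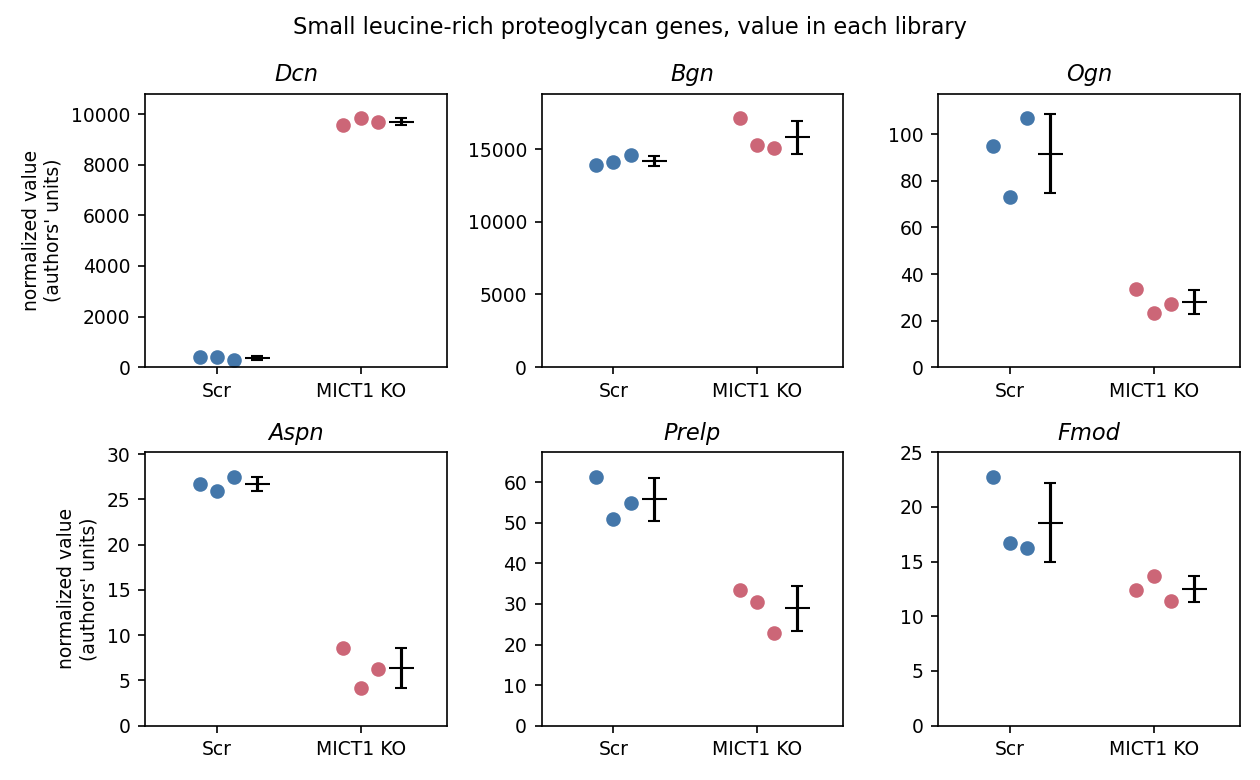
Normalized value (y axis, authors' units, from 0) of the 6 measured members in Scr (blue) and MICT1 KO (red), 1 point per library, with mean and SD (n = 3) to the right of each group. Dcn lies at 9571 to 9836 in KO against 278 to 409 in Scr, and Ogn, Aspn, Prelp and Fmod are lower in KO, without overlap.

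Decorin binds along collagen fibrils, limits their lateral growth and binds transforming growth factor β. Dcn lies on chromosome 10 from 97479500 to 97518163 (GRCm38, plus strand). Scr libraries had Dcn values of 409, 407 and 278. KO libraries had values of 9571, 9836 and 9713. Even the lowest KO value was 23.4 times the highest Scr value. The means were 365 ± 75.3 and 9707 ± 133 (SD, n = 3 each), and the log2 fold change was 4.75 with a standard error of 0.10, which ranked 4 from the top of 12507 genes. Scr libraries were the more uneven for this gene, with a coefficient of variation of 20.6% against 1.37% for KO. Scr replicate 3 was the low one, with 273 reads (exact Poisson 95% interval 242 to 307, counting error only), where the other Scr libraries had 414 (375 to 456) and 439 (399 to 482). Leaving it out gave the lowest log2 fold change of Dcn, 4.57.

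Biglycan, the closest relative of decorin, also binds collagen, and free biglycan is known to activate Toll-like receptors. Bgn lies on the X chromosome from 73483601 to 73495936 (plus strand). Scr libraries had Bgn values of 13907, 14080.0 and 14585. KO libraries had values of 17106, 15249 and 15048. KO replicate 1 stood above the other KO libraries, which lay just above the highest Scr library. The means were 14191 ± 353 and 15801 ± 1135 (SD, n = 3 each), and the log2 fold change was 0.15 with a standard error of 0.0564. Leaving out KO replicate 1 gave 0.094, the lowest value with a library left out, and the highest was 0.19.

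Osteoglycin is a small matrix protein first known from bone. Ogn lies on chromosome 13 from 49608015 to 49624501 (plus strand). Scr libraries had Ogn values of 94.95, 73.2 and 107. KO libraries had values of 33.4, 23.2 and 27.0. The groups did not overlap, and the lowest Scr value was 2.19 times the highest KO value. The means were 91.7 ± 17.0 and 27.8 ± 5.15 (SD, n = 3 each), 3.29-fold lower in KO, and the log2 fold change was -1.68 with a standard error of 0.27.

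Asporin binds collagen and carries a run of aspartates near its start. Aspn lies on chromosome 13 from 49544443 to 49567565 (plus strand), 40.45 kb from Ogn. Scr libraries had Aspn values of 26.7, 26.0 and 27.5, from 27, 28 and 27 reads. KO libraries had values of 8.58, 4.21 and 6.22, from 9, 4 and 6 reads. Every Scr value was at least 3.03 times every KO value. The log2 fold change was -1.961 (standard error 0.48), and -1.50 with a pseudocount of 5. No KO value of Aspn reached 10, so the gene passed the filter on low values through Scr libraries alone. Its exons overlap those of Cenpp on the opposite strand, and the strand setting of the counting is not given in the sources used here. Cenpp was at 126 ± 19.5 for Scr and 109 ± 6.14 for KO (SD, n = 3 each), with overlap (log2 fold change -0.19, adjusted p = 0.396, limma-trend).

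PRELP binds heparan sulfate and collagen and is found near basement membranes. Prelp lies on chromosome 1 from 133910304 to 133930102 (minus strand). Scr libraries had Prelp values of 61.3, 51.0 and 54.9. KO libraries had values of 33.4, 30.6 and 22.8. The groups did not overlap, and the lowest Scr value was 1.53 times the highest KO value. The means were 55.8 ± 5.22 and 28.9 ± 5.47 (SD, n = 3 each), and the log2 fold change was -0.94 with a standard error of 0.30. The antisense gene Gm15851 overlaps its exons, and 8.47% of the 50-base stretches of the Prelp transcripts occur there on the opposite strand.

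Fibromodulin takes part in the assembly of collagen fibrils, in tendon above all. Fmod lies on chromosome 1 from 134037254 to 134048280 (plus strand), 107 kb from Prelp. Scr libraries had Fmod values of 22.7, 16.7 and 16.3. KO libraries had values of 12.4, 13.7 and 11.4. The groups did not overlap, but the nearest libraries held 16 reads in Scr (exact Poisson 95% interval 9.15 to 26.0) and 13 in KO (6.92 to 22.2), a difference not detectable at this depth. The log2 fold change was -0.52 (standard error 0.45).

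The Scr and KO values did not overlap in 6 of the 6 members, beside 62% of all genes tested, with 2 members higher (30.9% of all genes) and 4 lower (31.2%). Nothing is read from these counts, since the members were listed with this contrast known and Aspn entered the fit through Scr libraries alone. The 6 members had a median log2 fold change of -0.73, all genes tested one of -0.0053.

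Levels of different genes were compared per exon length, as RPKM. In Scr the order of mean levels was Bgn (142 ± 3.53 RPKM), Dcn (3.82 ± 0.796), Ogn (2.19 ± 0.423), Prelp (0.943 ± 0.103), Aspn (0.693 ± 0.0261) and Fmod (0.344 ± 0.0723), each as mean and SD of n = 3. No neighbours in that order overlapped. In KO the order was Bgn (159 ± 10.4 RPKM), Dcn (101.9 ± 1.94), Ogn (0.664 ± 0.119), Prelp (0.490 ± 0.0904), Fmod (0.232 ± 0.0214) and Aspn (0.165 ± 0.0559). Ogn and Prelp overlapped there, and so did Fmod and Aspn. Among all genes Dcn stood at rank 7893 by mean RPKM in Scr and at rank 419 in KO, and Bgn at rank 253 and 238.

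The summed level of the 6 genes was 150.1 ± 3.33 RPKM for Scr and 262 ± 8.83 RPKM for KO (SD, n = 3 each). Leaving Dcn out, the sums were 146 ± 3.98 and 160.3 ± 10.6 RPKM. Most of the difference in the sum was thus Dcn. Dcn made up 2.55% ± 0.568 of the summed level for Scr and 38.9% ± 1.96 for KO (SD, n = 3 each). The share of Bgn was 94.7% ± 0.531 and 60.5% ± 1.90, and that of the 4 scarce members together 2.77% ± 0.314 and 0.590% ± 0.0626. The ratio of Bgn to Dcn by RPKM was 32.5, 33.1 and 50.3 for Scr, against 1.71, 1.48 and 1.48 for KO.

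**Figure D2:**
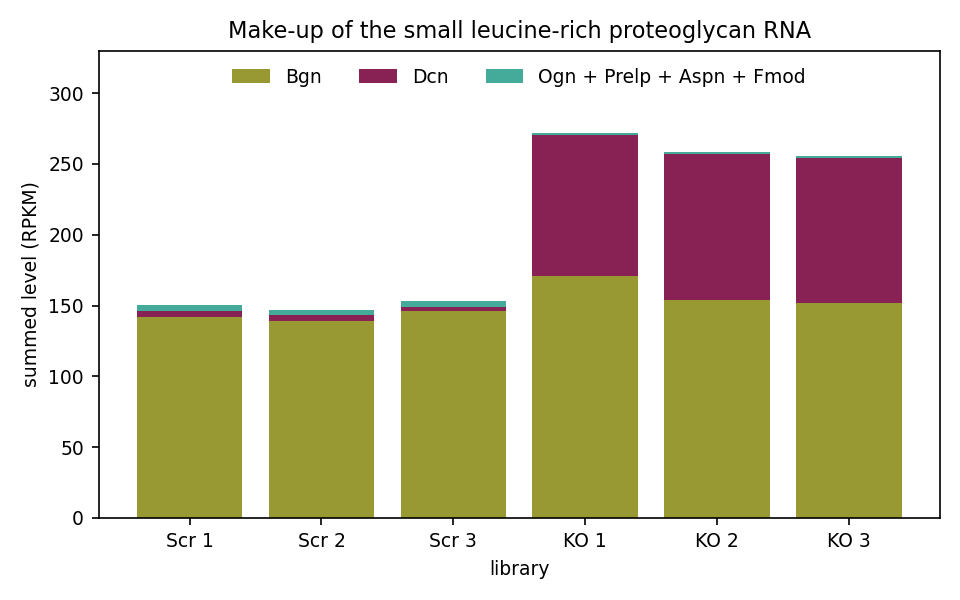
Level (y axis, RPKM) of the 6 measured members in each library (x axis), stacked as Bgn, Dcn and the other 4 genes. Dcn makes up 1.89% to 2.90% of the sum in Scr and 36.6% to 40.1% in KO libraries, while the other 4 genes are thin in both.

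Many genes of this family lie side by side in the genome. Dcn is 47.3 kb from Lum, with Kera and Epyc beyond it, and none of those was analysed here. Aspn and Ogn lie between and beside Ecm2 and Omd on chromosome 13, which were not analysed here. Prelp and Fmod lie near Optc on chromosome 1, which was not analysed here either. Genes outside the family next to the members changed in both directions or did not pass. Btg2, an antiproliferative gene 26.6 kb from Fmod, rose from 1407 ± 228 (SD, n = 3) to 3996 ± 159.7 (SD, n = 3; log2 fold change 1.52, adjusted p = 3.28e-12, limma-trend). Nol8, 28.6 kb from Ogn, fell by 0.58 on the log2 scale (adjusted p = 5.82e-06). The nearest listed genes on either side of Dcn, Btg1 at 857 kb and Atp2b1 at 1396 kb, fell, with log2 fold changes of -0.52 (adjusted p = 4.41e-08) and -0.21 (adjusted p = 0.00289). Atp2b4 beside Prelp was at 0.15 (adjusted p = 0.116), and Haus7 and Dusp9 around Bgn were at -0.19 (adjusted p = 0.201) and -0.12 (adjusted p = 0.362).

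**Figure D3:**
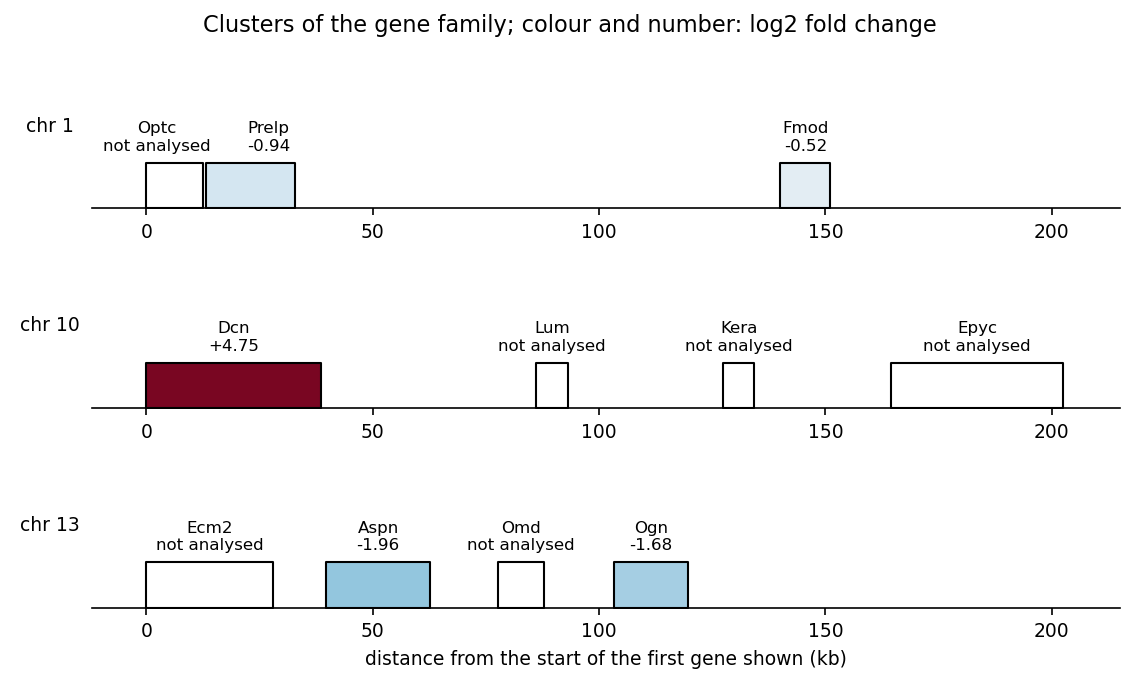
Family genes on chromosomes 1, 10 and 13, to scale along the distance (x axis, kb) from the start of the first gene shown, with measured genes coloured and numbered by log2 fold change (KO minus Scr). Dcn (4.75) is the only measured gene of its row, Aspn and Ogn (-1.68) share a row, as do Prelp (-0.94) and Fmod (-0.52).

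The sequences before the starts of Aspn and Ogn, which were lower together, are shown beside that of Bgn, which differed by little. Each is the 250 bases before the RefSeq start (GRCm38.p6), at chr13:49544193-49544442 for Aspn, chr13:49607765-49608014 for Ogn and chrX:73483351-73483600 for Bgn, all on the plus strand and written 5′ to 3′. Capitals mark matches, on either strand, to the TATA box, GC box, CCAAT box and TEAD letters given after them.
Aspn: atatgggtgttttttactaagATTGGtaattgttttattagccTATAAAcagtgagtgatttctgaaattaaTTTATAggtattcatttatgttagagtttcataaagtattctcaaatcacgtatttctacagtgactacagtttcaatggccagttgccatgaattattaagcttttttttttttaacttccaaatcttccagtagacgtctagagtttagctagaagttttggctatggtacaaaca
Ogn: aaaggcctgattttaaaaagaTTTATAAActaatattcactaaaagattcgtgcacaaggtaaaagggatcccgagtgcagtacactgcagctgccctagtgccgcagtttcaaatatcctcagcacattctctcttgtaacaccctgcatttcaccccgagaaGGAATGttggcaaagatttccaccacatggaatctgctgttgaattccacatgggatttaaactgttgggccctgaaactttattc
Bgn: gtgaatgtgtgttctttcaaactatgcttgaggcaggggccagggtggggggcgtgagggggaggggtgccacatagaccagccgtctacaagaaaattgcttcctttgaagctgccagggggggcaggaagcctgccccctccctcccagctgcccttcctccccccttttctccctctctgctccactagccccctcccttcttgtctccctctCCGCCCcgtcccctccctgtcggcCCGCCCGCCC

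G and C made up 30% of the Aspn window, 42% of the Ogn window and 64.4% of the Bgn window, with a median of 52.4% over 32851 promoters. The TATA box letters TATAAA lay 207 and 178 bases before the start of Aspn, and 229 and 227 bases before that of Ogn, where the matches overlap. They occur in 12.4% of all promoters, and not in the windows of Bgn, Prelp or Fmod. The Prelp window (chr1:133921402-133921651, minus strand) lies within the span given for that gene, before a start inside it. The GC box letters GGGCGG occurred 3 times in Bgn, at 34, 10 and 6 bases before the start, and in no other of the 5 windows (32.7% of all promoters). The letters CCAAT were found in Aspn and Prelp (33.8%) and the TEAD letters GGAATG in Ogn (12.6%). The E-box CANNTG, not in capitals above, occurred 3 times in Ogn, 1 time each in Bgn, Fmod and Aspn, and not in Prelp (66.2%). The cAMP response element TGACGTCA (1.55%), its shorter form TGACG (17.8%) and the AP-1 letters TGANTCA (6.75%) were not in these windows. A match describes letters and not binding. Dcn and Lum had no entry.

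Of 11 other genes of the family 5 were listed and 3 tested, of which 0 rose and 1 fell (adjusted p under 0.05). Among all genes tested 56.9% passed that threshold, 28.5% as higher and 28.3% as lower. Tsku, a secreted inhibitor of growth factor signalling and the most abundant of them, was at 1669.6 ± 74.4 for Scr and 1533 ± 65.3 for KO (SD, n = 3 each), with overlap (log2 fold change -0.12, adjusted p = 0.112, limma-trend). Podn, which encodes podocan, fell from values of 48.5, 55.6 and 50.9 to 33.4, 21.1 and 37.3 (log2 fold change -0.77, adjusted p = 0.0377). The call of Podn was lost without Scr replicate 1, 2 or 3 or KO replicate 2, with an adjusted p from limma-trend of 0.0648 to 0.160. For Podnl1 the Scr values were 30.7, 7.42 and 6.11 and the KO values 21.0, 29.5 and 27.99, with overlap (log2 fold change 1.12, adjusted p = 0.072). Without Scr replicate 1, the high one, Podnl1 was at 1.80 (adjusted p = 0.00698, limma-trend). The Scr values then left, 7.42 and 6.11, were below the filter on low values. Podnl1 thus met that filter through KO libraries alone in this setting, and nothing is read from the call. Chadl and Nyx were below the filter.

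The enzymes that start and build chondroitin and dermatan sulfate chains had log2 fold changes between -0.61 and 0.99. Of 19 tested, 8 rose and 4 fell, with a median of 0.24. The share that passed, 63.2%, was near the 56.9% of all genes tested. Chpf2 and Chpf, chondroitin polymerizing factors, rose by 0.99 (adjusted p = 4.27e-09) and 0.66 (adjusted p = 2.59e-07, limma-trend). Chst11, a chondroitin 4-sulfotransferase with the highest mean RPKM of the list over the 6 libraries, fell from 4923 ± 199 (SD, n = 3) to 3219 ± 39.8 (SD, n = 3; log2 fold change -0.61, adjusted p = 4.39e-09). The epimerases Dse and Dsel, which turn chondroitin into dermatan sulfate, rose by 0.31 (adjusted p = 0.000832) and 0.39 (adjusted p = 0.00651). The dermatan 4-sulfotransferase Chst14 rose by 0.50 (adjusted p = 0.000888). Besides Chst11, the genes that fell were Chst3 (-0.59, adjusted p = 0.0357, with overlap), B3galt6 (-0.49, adjusted p = 0.00159) and Chsy1 (-0.18, adjusted p = 0.0088). Dse, Dsel, Chst14, Chst3, B3galt6 and Chsy1 were picked for naming after their values were seen.

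Of 5 tested genes for keratan sulfate chains 3 rose and 1 fell (80% passed, beside 56.9% of all genes tested), with a median log2 fold change of 0.39. Chst2, a sulfotransferase acting on N-acetylglucosamine, rose from values of 242, 278 and 258 to 1053, 1042 and 947 (log2 fold change 1.96, adjusted p = 2.59e-13, limma-trend). Chst1, the galactose sulfotransferase of keratan sulfate, fell from 403, 393 and 391 to 228, 262 and 204 (log2 fold change -0.78, adjusted p = 1.45e-05). B3gnt2 rose by 0.39 (adjusted p = 0.00341) and B4galt4 by 1.32 (adjusted p = 0.0141). The call of B4galt4, with values of at most 37.9, was lost without Scr replicate 1 (adjusted p = 0.0556) or KO replicate 2 (adjusted p = 0.0694). B4galt1, the most abundant of the list, was at -0.0061 (adjusted p = 0.93). Of 6 genes for the supply of sulfate, Papss2 fell and the other 5 did not pass. Papss2, which makes the sulfate donor PAPS, went from 187 ± 17.1 to 67.9 ± 11.6 (SD, n = 3 each), with a log2 fold change of -1.46 (adjusted p = 1.43e-06). Papss1, which also makes PAPS, had the higher mean level in Scr, 28.04 RPKM against 3.08 for Papss2. It was at -0.013 (adjusted p = 0.887, limma-trend).

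The collagens of the fibrils and filaments that these proteins bind went both ways. Of 12 tested, 5 rose and 5 fell (83.3% passed, beside 56.9% of all genes tested), with a median log2 fold change of 0.0057. Col1a1, the main chain of collagen I, rose from 17955 ± 585 (SD, n = 3) to 30595 ± 2507 (SD, n = 3; log2 fold change 0.77, adjusted p = 7.05e-10, limma-trend). Its partner chain Col1a2 was at 0.059 (adjusted p = 0.417) and Col3a1 at -0.047 (adjusted p = 0.572). The collagen V chains Col5a1 and Col5a2 rose by 0.59 (adjusted p = 5.19e-09) and 0.35 (adjusted p = 6.58e-06), and Col12a1, of a fibril-associated collagen, by 0.53 (adjusted p = 4.11e-06).

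The 3 listed chains of collagen VI, a filament-forming collagen that binds decorin and biglycan, fell. Col6a3 had values of 33126, 29670.0 and 28563 for Scr, against 9270.2, 9335 and 10746 for KO (log2 fold change -1.64, adjusted p = 9.61e-15, limma-trend). Col6a1 and Col6a2 fell, with log2 fold changes of -0.82 (adjusted p = 1.01e-09) and -0.91 (adjusted p = 1.55e-08). Col5a3 and Col11a2 fell too, at -0.97 (adjusted p = 7.93e-06) and -0.92 (adjusted p = 0.000613). Col2a1, the collagen of cartilage, rose from values of 9.89, 11.1 and 5.09 to 89.6, 61.1 and 63.2 (log2 fold change 2.94, adjusted p = 1.64e-06), and had few reads in Scr. It met the filter on low values only through KO libraries, so nothing is read from its call, which is among the 5 that rose.

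Among 15 tested growth factors and receptors listed as signal partners of decorin or biglycan, 8 rose and 4 fell. Their median log2 fold change was 0.50, and 80% passed, beside 56.9% of all genes tested. Tgfbr1 and Tgfbr2 are on the list as receptors of transforming growth factor β. Ccn2, which encodes connective tissue growth factor, rose from values of 549, 441 and 475 to 5202, 5459.9 and 5538 (log2 fold change 3.47, adjusted p = 5.87e-19, limma-trend). Ccn2 had the highest mean RPKM of the list over the 6 libraries through the KO group (115.7), while in Scr it was at 10.4 RPKM, below Tgfbr1 (33.3), Lrp1 (28.01) and Lrp6 (20.6). The Toll-like receptor gene Tlr2 rose from 101, 80.6 and 85.5 to 324, 276 and 333 (log2 fold change 1.80, adjusted p = 4.52e-09). The purinergic receptor gene P2rx7 rose from 30.7, 19.5 and 12.2 to 101, 65.3 and 73.6 (log2 fold change 1.96, adjusted p = 4.87e-05). The 4 that fell, named after their values were seen, were the receptor genes Tgfbr1 (log2 fold change -0.81), Tgfbr2 (log2 fold change -0.26), Met (log2 fold change -0.82) and Lrp6 (log2 fold change -0.85).

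Of 12 tested genes of proteases and their enhancers, 10 rose and 2 fell, with a median log2 fold change of 0.81. Among all genes tested 28.5% rose and 28.3% fell. Bmp1, the protease that matures biglycan and fibrillar procollagens, rose by 0.44 (adjusted p = 3.76e-05, limma-trend), and its relative Tll1 by 1.02 (adjusted p = 3.26e-10). Pcolce, an enhancer of procollagen cleavage and the most abundant of the list, rose from 3797 ± 162 (SD, n = 3) to 8124 ± 646 (SD, n = 3; log2 fold change 1.09, adjusted p = 2.27e-12). Mmp3, a stromelysin, rose from values of 114, 94.6 and 109 to 435, 513 and 474 (log2 fold change 2.15, adjusted p = 2.44e-11). Adamts5 rose by 2.06 (adjusted p = 0.000484) and Mmp13 by 1.79 (adjusted p = 8.11e-06). Adamts5 had values of 9.89, 7.42 and 6.11 in Scr, against 29.6, 48.5 and 30.1 in KO. It thus passed the filter on low values through KO libraries alone. Nothing is read from its call, which is among the 10 that rose. Pcolce2 fell by 0.29 (adjusted p = 0.0105), a call lost without Scr replicate 2 (adjusted p = 0.0631). The groups overlapped for Mmp9 (log2 fold change -1.41, adjusted p = 0.0468), whose call was lost without Scr replicate 2 (adjusted p = 0.227), Scr replicate 3 (0.173) or KO replicate 3 (0.219), and under limma-voom and both other scalings.

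Of 16 tested core proteins of other proteoglycans, 7 rose and 3 fell, with a median log2 fold change of 0.28. The share that passed, 62.5%, was near the 56.9% of all genes tested. Gpc6, a glypican, rose by 1.01 (adjusted p = 3.64e-09, limma-trend) and Sdc2, a syndecan, by 0.83 (adjusted p = 5.16e-09). Sdc1, the most abundant of the list, fell from 28017 ± 822 (SD, n = 3) to 19399.8 ± 268 (SD, n = 3; log2 fold change -0.53, adjusted p = 2.01e-08), and Cspg4 fell by 0.92 (adjusted p = 1.19e-05).

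Markers of other cells that express these genes were measured alongside. Of 12 fibroblast and progenitor markers 10 were listed, at a summed 2161 to 2399 CPM in Scr libraries against 2196 to 2490.4 CPM for KO, which overlap. Vim alone made up most of that sum, with values of 28536 ± 1893 for Scr and 25763 ± 2548 for KO (SD, n = 3 each). Of the 8 tested 5 rose and 2 fell (87.5% passed, beside 56.9% of all genes tested). S100a4 (log2 fold change 2.58) and Eng (log2 fold change 1.66) rose most. Dlk1 (log2 fold change -3.47) fell most. Pdgfra fell as well (log2 fold change -0.19, adjusted p = 0.0347, limma-trend). The call of Pdgfra was lost without Scr replicate 1 or 2 or KO replicate 1 or 2 (adjusted p of 0.0685 to 0.169). That of Cd44 (log2 fold change 0.18) was lost without Scr replicate 3 (adjusted p = 0.0521, limma-trend). Vim, at -0.15, passed only without KO replicate 1 (adjusted p = 0.00219), without Scr replicate 3 (0.0245) or under limma-voom (0.0300). Of 12 cartilage, tendon and bone markers 6 were listed, at 149.6 to 168.6 CPM against 205 to 226 CPM. Of these 4 were tested and 4 rose, beside 28.5% of all genes tested. Sox9 lost its call without Scr replicate 3 (adjusted p = 0.0725, limma-trend). Col2a1, among the 4, met the filter on low values only through KO libraries. Acan, Scx, Tnmd and Bglap were not analysed here. Of 10 macrophage markers 4 were listed, at a summed 16.6 to 23.1 CPM against 31.8 to 39.2 CPM. Only Cd14 of those 4 rose (1.24, adjusted p = 2.44e-06, limma-trend), while Cd68 (-0.23, adjusted p = 0.733), Csf1r (0.29, adjusted p = 0.253) and Mrc1 (0.022, adjusted p = 0.967) did not pass. Of 10 muscle markers 5 were listed, at 26.1 to 28.5 CPM against 22.1 to 24.2 CPM, and of these Acta2 fell (-1.33, adjusted p = 4.53e-05) and 4 did not pass. Of 10 endothelial markers only Cdh5 was listed, at 0.369 to 0.725 CPM against 1.59 to 2.03 CPM, and it rose (1.71, adjusted p = 0.00275). Its Scr values were 5.93, 12.1 and 8.14, so it met the filter on low values only through KO libraries. Nothing is read from the call of Cdh5. Ptprc, Adgre1 and Pecam1 were not analysed here. The part of any such cells in the values of the members was not tested.

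Over the 6 libraries, the profile of Bgn was most like those of Rab2b (Pearson r = 0.995), Brk1 (0.990) and Rhoa (0.988). The mean profile of the 6 members averages opposite directions and spanned only 0.25 log2 units, and the genes nearest to it were Commd8 (0.995), 2610524H06Rik (0.984), Sugt1 (0.978), F420014N23Rik (0.964) and Bicra (0.963). For Dcn, a profile added after its values were seen, 1735 genes had r of at least 0.95, led by Vsig10, Hip1r and Kif20a. These r describe 6 libraries in 2 groups and carry no p.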

How the data were processed

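RNA-seq of 6 libraries of BAT cells, 3 Scr and 3 KO, was analysed. The deposited table holds a normalized signal, which the authors made from reads aligned to mm10 with Partek software. The submitters' processing notes also name STAR and DESeq2, without a role. The annotation and the counting are not given in the sources used here. Libraries were strand-specific. Among values below 20, 88.8% to 90.4% per library were whole multiples (tolerance 0.01) of a common step, taken as 1 read. This was too few to recover whole reads for every gene, so no count model was used. The reads given for Dcn in Scr, Aspn and Fmod are values divided by that step. They lay within 0.05 of whole numbers.

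Log2(value + 1) was compared by limma-trend (limma 3.58.1, R 4.3.3), keeping genes that reached 10 in 3 or more libraries, with Benjamini-Hochberg adjustment over all of them and a threshold of 0.05. The function was first tested on simulated data. CPM and RPKM used the summed values of a library, RPKM with GENCODE vM21 exon lengths (13142 genes). Gene positions and promoters are from RefSeq (GRCm38.p6; promoters for 5 of 7 members). Members, lists and rules were chosen with earlier results of these data known. Besides the members, the rules for naming genes of a list gave the 3 non-overlapping calls of largest size and the gene of highest mean RPKM. Where up to 12 were tested, any gene could be named. The nearest listed genes on each side and the genes of most similar profile were named too. Genes said to be picked or named after their values were seen stand outside these rules, as does Lrp1. The study calls its replicates biological, and the p-values measure the spread between these libraries only. Intervals cover counting error only. Alternatives were another scaling, filter or pseudocount, limma-voom, a replicate block and leaving out each library.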

Additional observations from a re-analysis of the deposited data

How the results depend on the processing

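Scaling by library total or upper quartile, limma-voom, no filter, a maximum RPKM of at least 4, pseudocounts of 0.5 and 5, a replicate block and leaving out each library were tried. Under the RPKM filter only Dcn and Bgn of the members were left, so the median of the members was 2.45 in place of -0.73, and 13 in place of 21 partner genes were lower, with fewer genes tested. With the replicate block 3543 genes were higher and 3512 lower, against 3569 and 3544. The block changed no call among the 88 partner, marker and neighbour genes described below. Deviations of same-numbered libraries correlated by -0.024, -0.015 and 0.064, so no pairing by number was seen. That cannot tell whether same-numbered libraries were prepared together. Leaving out a library gave a median of the members of -0.79 to -0.62, 3269 to 3334 genes higher and 3114 to 3344 lower, and 40 to 43 partner genes higher and 17 to 20 lower. Of 88 partner, marker and neighbour genes that the naming rules allowed, 78 kept their side of the threshold in every setting in which they were tested. Genes picked after their values were seen and genes of similar profile were not among the 88. In at least 1 setting 7 of the 88 lost their call and 3 gained one. Podnl1 is among the 3, and nothing is read from its call. Of the 66 among the 88 with a call, 0 reversed. Some genes without a call, such as B4galt1, Col3a1 and Cd68, changed sign in some settings. The order of the members by RPKM was the same with other lengths and each library left out. Few reads limit Aspn and Fmod.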
